A study of Mus musculus with 3 samples.

Results

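The regions described here are wild-type SOX2 peaks that sit close to one another and have no counterpart in the knockout. A wild-type peak was called lost when no knockout peak had an edge within 1 kb of it, and clustered when another lost peak lay less than 5 kb away, edge to edge. Peaks on chromosomes 1 to 19 and narrower than 1 kb were used. Members were thus chosen by the positions of peaks in both lists, and their scores were not used. The rule gave 1179 clustered lost peaks, out of 7213 in the whole wild-type list. Of that list, 81 peaks were not on these chromosomes and 21 were too wide, which left 7111, of which 607 had a knockout peak within 1 kb and are called retained. Of the 7111, 6504 (91.5%) were lost. The remaining 5325 lost peaks had no lost neighbour that close and are called solitary.

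SOX2 was immunoprecipitated from antral gastric glands, the tubular units of the distal stomach, with a goat antibody, and the DNA was sequenced (ChIP-seq). All mice carried Sox2 alleles flanked by loxP sites (Sox2 fl/fl) on a mixed C57BL/6 x 129 background. The knockout also carried Rosa26CreER, a tamoxifen-activated recombinase driven from a locus known to be active in most cell types. Where Sox2 had been deleted was not measured here. The wild type carried no Cre (Rosa26WT), so both groups had the flanked alleles and both received tamoxifen at 8 weeks of age, with the stomachs taken 2 weeks later, although the labels also give 8 weeks as the age of the samples. There was 1 library per genotype, and the labels do not say how many animals it came from. A list of peaks holds no expression values, so the labelled tissue could not be checked by its markers. With 1 library per genotype there is no replicate error and no test, and every interval below covers counting error over peaks only.

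SOX2 is a transcription factor of the high-mobility-group box family, which binds a short DNA word in the minor groove and bends the helix. It marks progenitor cells of several foregut tissues, the stomach among them. Transcription factors often bind regulatory DNA at several sites within a few kilobases, and a run of neighbouring ChIP peaks is the form this takes in a peak list. The same form arises when a peak caller divides a broad zone of reads into separate intervals.

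Clustered lost peaks were mostly found 2 at a time. The 1179 peaks formed 554 clusters, in which each member lay less than 5 kb from the next. Of these clusters, 495 (89.4%, exact Clopper-Pearson 95% interval 86.5 to 91.8) had 2 members, 48 had 3, 10 had 4 and 1 had 5. The members covered 400 kb, out of 2140 kb covered by all lost peaks. Membership was set by the knockout list and by spacing, so that 18.1% of lost peaks qualified is a description of the rule's outcome.

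Members of a cluster were often very close. The median gap between neighbouring members was 1437 bp (order-statistic 95% interval 1296 to 1649) over 625 gaps. Gaps shorter than 500 bp numbered 163 (26.1%, 22.7 to 29.7), and 62 were shorter than 100 bp. At the shortest gap, on chromosome 4, a peak from 44180181 to 44180492 with a score of 72.33 was separated by 1 bp from a neighbour that scored 58.51. In 123 of the 625 cases (19.7%, 16.6 to 23.0) both members and the gap fitted into less than 1 kb. Gaps of 4 to 5 kb numbered 61, and there were 59 gaps of 5 to 6 kb just outside the limit. The largest gap inside the rule was 4983 bp and the smallest outside was 5004 bp.

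**Figure D1:**
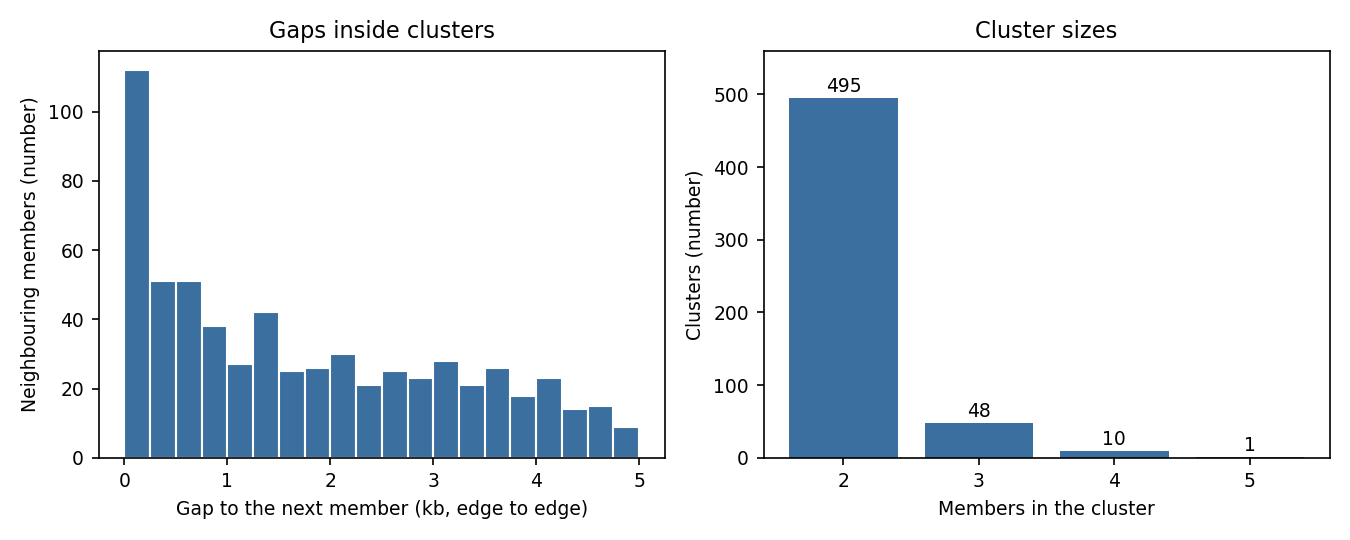
Left, number of neighbouring members of a cluster against the gap between them (kb, edge to edge, bins of 0.25 kb); right, number of clusters by their number of members. The shortest bin is the highest, and 495 of 554 clusters have 2 members.

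A cluster spanned a median of 2.06 kb (1.90 to 2.29) with 2 members and 4.66 kb (3.90 to 5.62) with 3. Over all clusters the peaks took up a median of 29.6% of the span (27.1 to 32.7). Clusters with more members did not stand clear of the others in their highest score. The median highest score was 120.52 (111.89 to 127.16) with 2 members, 140.23 (123.91 to 185.85) with 3 and 132.73 (94.71 to 322.61) with 4 or more.

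The score is the value the authors' peak caller gave to each peak, and it serves here to describe and rank peaks within a list. Its scale is not named, so no ratio of scores is given, and sums of scores were used only to choose and order clusters. Clustered lost peaks had a median score of 82.33 (80.03 to 87.22), solitary lost peaks 77.69 (75.88 to 79.56), and all 7111 peaks 82.7 (81.31 to 84.56). Scores of at least 200 were given to 120 clustered peaks (10.2%, 8.51 to 12.05) and to 384 solitary peaks (7.21%, 6.53 to 7.94). Clustered peaks therefore scored slightly higher than solitary ones by these measures, and neither pair of intervals overlapped. At other limits they did. Scores under 60 were given to 24.3% (21.8 to 26.8) of clustered and 26.4% (25.3 to 27.6) of solitary peaks. Scores of at least 300 were given to 2.97% (2.08 to 4.10) and 1.92% (1.56 to 2.32). Neighbouring peaks are not independent, so the intervals are no test of the difference. Retained peaks were far above clustered and solitary lost peaks, with a median of 236.95 (218.47 to 258.41). They were defined by the knockout list, so this is given as a description.

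Widths followed the same order. The median width was 319 bp (311 to 326) for clustered lost peaks, 310 bp (306 to 313) for solitary ones and 457 bp (443 to 467) for retained peaks. The intervals of clustered and solitary peaks overlapped. Score and width rose together over the 1179 clustered peaks (Spearman rho 0.80) and over the 5325 solitary peaks (rho 0.79). Both values come from the same reads of 1 library, so these correlations describe the list only.

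The share of lost peaks that were clustered changed little over most of the score range. With lost peaks sorted by score into 10 groups of equal size, it was 16.9% (14.1 to 20.001) in the lowest group and 14.9% (12.3 to 17.9) in the next. It was 23.3% (20.1 to 26.8) in the highest group, where scores ran from 182.98 to 811.47, and 19.7% (16.7 to 23.0) in the one below it. The other groups lay between 16% and 18.9%. Of the 100 lost peaks with the highest scores, 27 were clustered, as were 3 of the top 10.

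Within a cluster, the highest-scoring member had a median score of 123.98 (115.84 to 129.04) and the next 65.36 (62.09 to 67.27), where the lowest score in the wild-type list was 50. The order of these medians follows from sorting the members. The next-highest member scored under 60 in 227 clusters (41.0%, 36.8 to 45.2), while 24.3% of clustered peaks and 26.0% of all lost peaks did so when not sorted. Taking the lower of 2 values raises such a share by itself, so the 41.0% is not shown to be a trait of clusters. Every member reached 100 in 73 clusters (13.2%, 10.5 to 16.3), and none did in 198.

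Within clusters of 2, a high score on one side did not go with a high score on the other. Where the partner scored at least 100, 138 of 376 members (36.7%, 31.8 to 41.8) did so too, and where the partner scored lower, 238 of 614 did (38.8%, 34.9 to 42.7). These shares count each cluster from both sides, so their intervals are too narrow. Over the 495 clusters, the scores of the left and right members had a Spearman rho of -0.01. Both members reached 100 in 69 clusters, 1 of them in 238 and neither in 188. The higher-scoring member was also the wider in 390 of 494 clusters with unequal values (78.9%, 75.1 to 82.5).

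**Figure D2:**
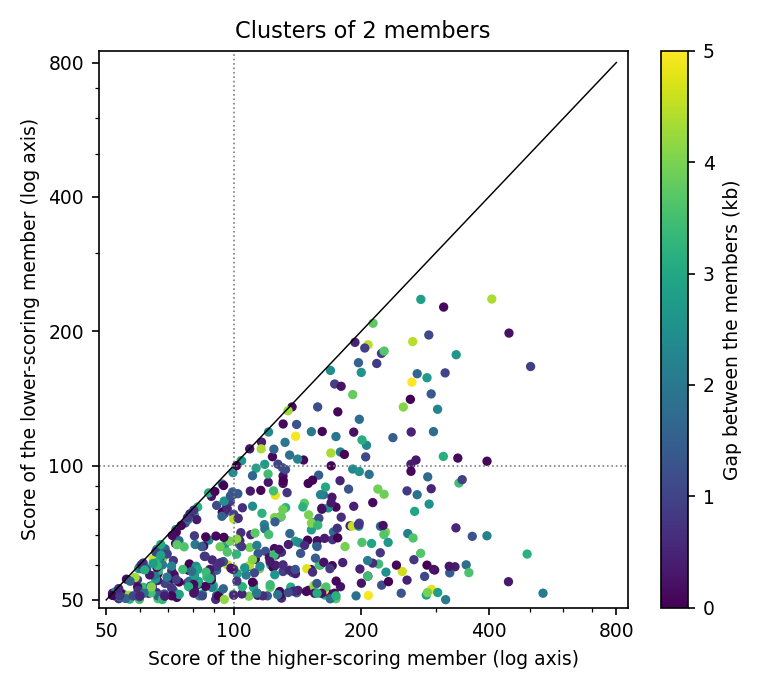
Score of the lower-scoring member against that of the higher-scoring member (both log axes) for the 495 clusters of 2 members; colour gives the gap in kb, the line marks equal scores and the dotted lines a score of 100. The 69 clusters with both members at 100 or more lie in the upper right, and the lower right holds the 238 with 1 such member.

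The distance between members made little difference to their scores. At gaps under 500 bp the higher member of a neighbouring pair had a median of 125.43 (112.2 to 134.56) and the lower 60.92 (58.91 to 67.88). At 2 to 5 kb the medians were 119.56 (109.06 to 126.56) and 64 (59.92 to 66.56), and each pair of intervals overlapped. The lower-scoring members had a median width of 265 bp (240 to 283) at the short gaps and 276 bp (262 to 287) at the long ones. In the 48 clusters of 3, the highest-scoring member was the middle one in 11, the first by position in 18 and the last in 19.

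Positions in the following are on mm9, counted from 1. The only cluster of 5 lay on chromosome 2 from 152553829 to 152566012, a span of 12.2 kb. Its outermost members were its strongest, with scores of 322.61 and 222.11. The inner members scored 92.22, 78.15 and 51.35. No knockout peak was listed nearer than 80.1 kb.

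The highest summed score belonged to a cluster of 3 on chromosome 11 from 112898963 to 112904579. Its members scored 407.3, 264.22 and 183.08 in order of position, which adds up to 854.6. Among all lost peaks they ranked 41, 228 and 648. The first pair was 498 bp apart, the last member followed after 3467 bp, and the first knockout peak was met at 226 kb.

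A second cluster on chromosome 11, from 63332471 to 63338396, had almost the same sum, 853.72, with another make-up. It held the strongest of all clustered peaks, which ran from 63337662 to 63338396, scored 722.26 and had rank 3 among all lost peaks. The other members scored 79.3 and 52.16. The weakest ended 25 bp before the strongest began, and the first knockout peak was met at 905 kb.

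On chromosome 17 from 27929601 to 27937371, 4 members scored 76.64, 204.07, 102.61 and 386.31 along 7.77 kb. On chromosome 3 from 15107328 to 15114724, 4 members scored 87.57, 218.89, 265.13 and 167.46 along 7.40 kb. The former was highest at its last member and the latter inside. Their nearest knockout peaks were 1258 kb and 458 kb away.

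A wild-type peak that kept a knockout peak stood beside some of these clusters. On chromosome 9 from 78060039 to 78067102, 3 members scored 347.68, 289.55 and 82.73. At 7.48 kb from them a retained wild-type peak scored 352.39, and its knockout partner scored 65.68. The lost member of 347.68 and this retained peak were thus neighbours of almost equal wild-type score with different outcomes in the knockout list, whose lowest score was 50.02.

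The same arrangement was found on chromosome 17 from 43305146 to 43307940. The members scored 537.03 and 51.76. A retained wild-type peak 3.81 kb away scored 580.89 and had a knockout partner of 88.14. Another at 9.73 kb had a wild-type score of 104.53 and a knockout score of 51.07. Here a peak with a much lower wild-type score than the lost member of 537.03 kept a knockout peak. The list as a whole ran the other way. Scores of at least 500 were held by 12 lost and 104 retained peaks, and scores of 50 to 100 by 4251 lost and 93 retained peaks. On chromosome 1 from 135963685 to 135968703, the members scored 88.07, 77.25 and 543.04, and a retained peak 8.99 kb away had scores of 155.76 (wild type) and 54.5 (knockout). These are the 3 of the 12 named clusters with a knockout peak within 10 kb, and depth behind the lists is unknown. Of all 554 clusters, 26 (4.69%, 3.09 to 6.80) had a knockout peak within 10 kb and 22 (3.97%, 2.51 to 5.95) a retained peak.

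The other named clusters had 2 members each. Chromosome 10 from 12572695 to 12574547 held scores of 166.7 and 501.94 with 934 bp between them. Chromosome 1 from 89788302 to 89789871 held 198.07 and 446.31 with 212 bp between them, and the stronger was 871 bp wide, close to the width limit. Chromosome 6 from 22311944 to 22317352 held 236.09 and 406.49 with 4367 bp between them, and chromosome 2 from 79445091 to 79449198 held 63.35 and 492.56. The cluster on chromosome 6 was 1 of only 4 in which every member reached 200. Nearest knockout peaks were 394 kb to 1969 kb away from these 4 clusters.

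**Figure D3:**
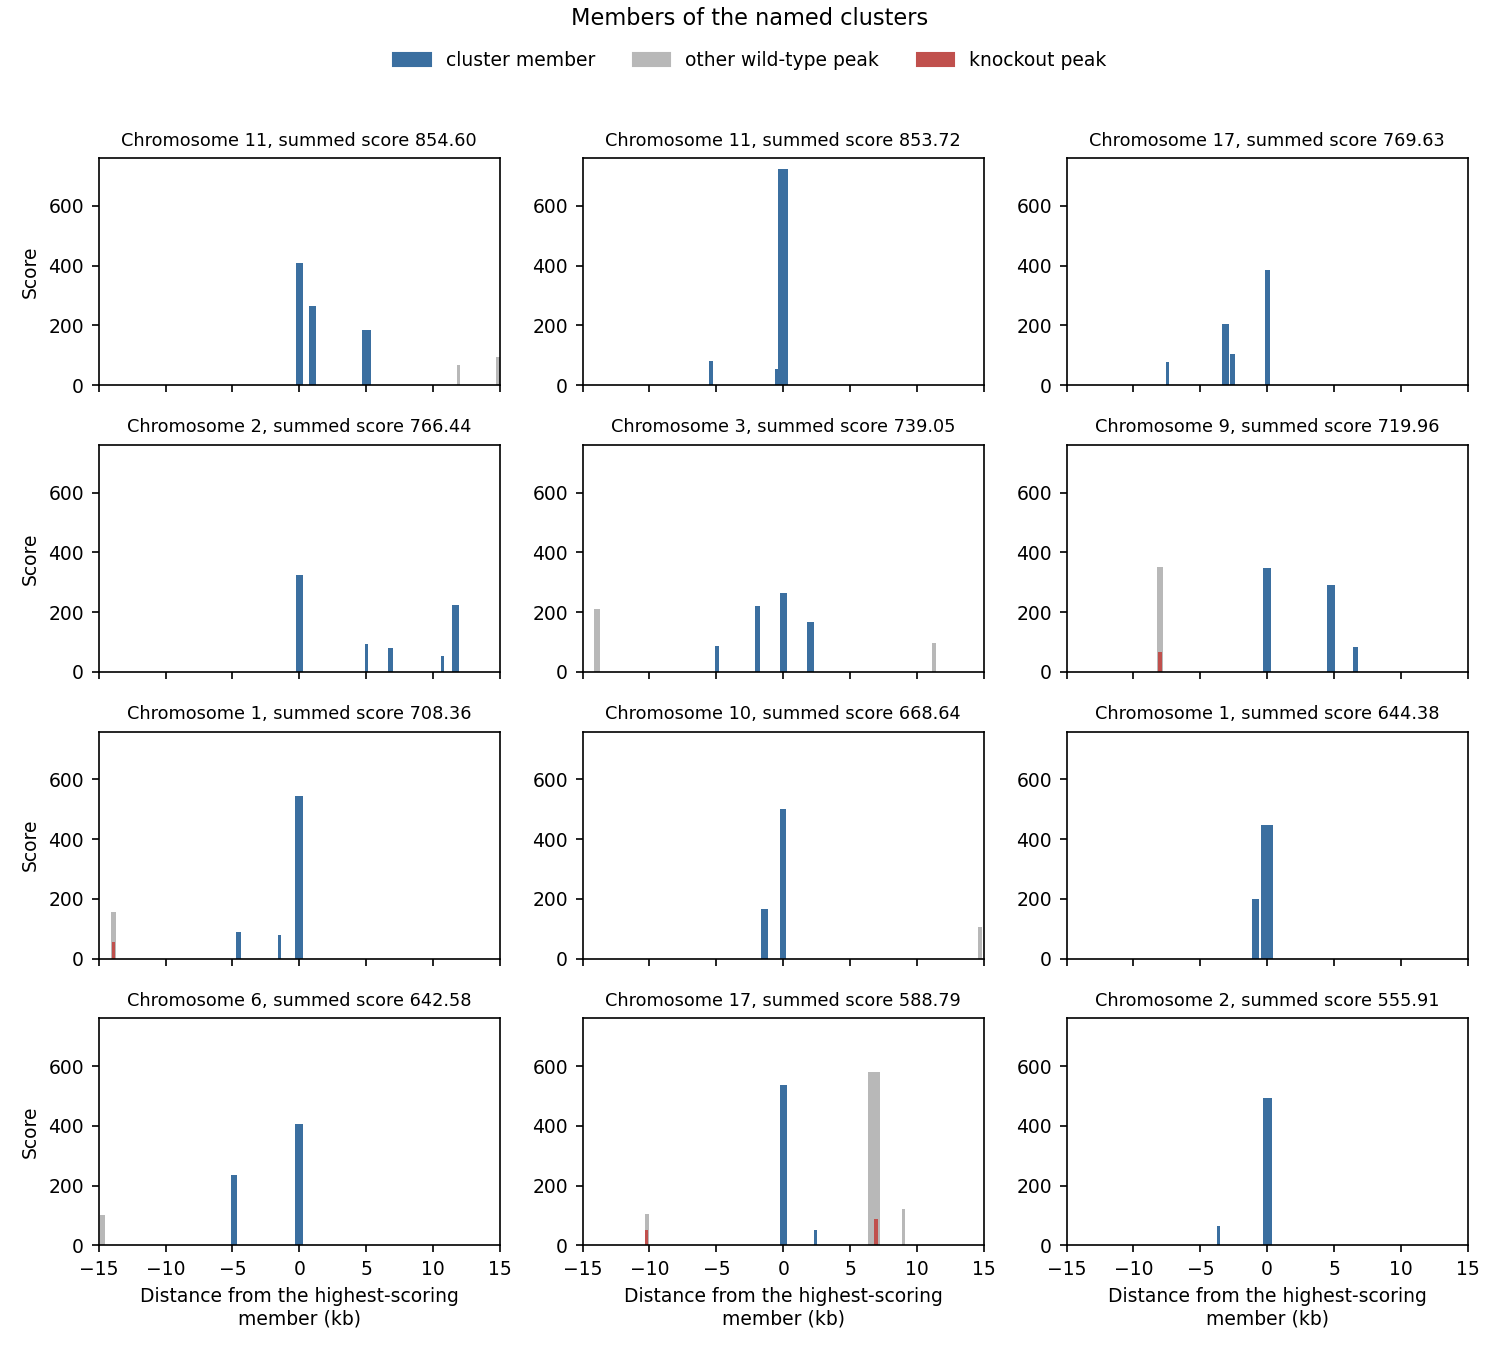
Score of each peak (bar height, bars as wide as the peaks) against its distance from the highest-scoring member (kb) in the 12 named clusters, ordered by summed score. Members of the cluster shown are blue and knockout peaks red. Other wild-type peaks are grey whether lost or not. Red bars appear in the panels for chromosome 9, for chromosome 1 with a sum of 708.36 and for chromosome 17 with a sum of 588.79.

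The 10 clusters of 4 ranged widely in strength. Their summed scores ran from 252.26 to 769.63, and their highest members from 73.3 to 386.31. The lowest sum was on chromosome 18 from 66631190 to 66637897, with members of 68.08, 58.51, 52.37 and 73.3. The shortest was on chromosome 14 from 60425024 to 60427072, where 4 peaks shared 2.05 kb and the last pair was 12 bp apart. On chromosome 6 from 99118761 to 99123832, strong members of 237.5 and 216.16 alternated with weak ones of 54.18 and 66.26. The knockout peak closest to any of the 10 was 172 kb off.

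Knockout peaks were seldom near a cluster. The knockout list held only 887 peaks, and the rule barred any within 1 kb of a member. A knockout peak lay within 5 kb of 16 of 554 clusters (2.89%, 1.66 to 4.65), within 50 kb of 78 (14.1%, 11.3 to 17.3) and within 100 kb of 114 (20.6%, 17.3 to 24.2). Of the solitary lost peaks, 1.502% (1.19 to 1.87) had one within 5 kb, 9.46% (8.69 to 10.3) within 50 kb and 14.9% (13.98 to 15.9) within 100 kb. The intervals at 50 kb and 100 kb did not overlap, but a cluster spans more sequence than a single peak and was measured from its nearest edge. No knockout peak and no retained peak lay between the members of a cluster. However, the 1 kb limit leaves no room for a knockout peak in gaps under 2 kb, which were 372 of the 625. A retained peak needs a knockout peak within 1 kb, so those gaps had no room for one either. Members closest to the 1 kb limit had a knockout peak 1297, 1367, 1512 and 1678 bp away, and the retained peaks closest to it 987, 951 and 934 bp away.

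Another cluster lay within 50 kb of 55 of the 554 (9.93%, 7.57 to 12.7). Of all lost peaks, 58.4% (57.2 to 59.6) had some other wild-type peak within that distance. There are far fewer clusters than wild-type peaks to be found, so these shares cannot be set against each other. Joining clusters less than 50 kb apart gave 26 groups of 2 clusters and 1 of 3. The group of 3 was on chromosome 2 from 140528967 to 140589466, with 6 members, a highest score of 99.36 and the first knockout peak at 3152 kb. Its members scored 53.94, 51.07, 66.21, 51.07, 99.36 and 58.51 in order of position. All but the highest were under 78.685, the median of all lost peaks.

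Close spacing was also measured over retained peaks, counting any wild-type neighbour. Of all 7111 wild-type peaks, 19.8% had another less than 5 kb away. The share was 19.2% (18.3 to 20.2) over lost peaks and 25.2% (21.8 to 28.9) over retained peaks, and the median distance to the nearest wild-type peak was 34.9 kb (33.3 to 36.5) and 26.6 kb (22.2 to 33.0). Close spacing was thus no less common among retained peaks. The higher retained share lay with peaks that did not overlap a knockout peak but had one beside them within 1 kb: 34 of these 40 (85.0%, 70.2 to 94.3) had a close wild-type neighbour. These 40 count as retained only through the 1 kb limit. Whether their knockout peak lies on that neighbour was not tested. When only an overlap counted as retained, the shares were 19.7% (18.7 to 20.6) without and 21.0% (17.7 to 24.6) with a knockout peak, and their intervals overlapped.

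**Figure D4:**
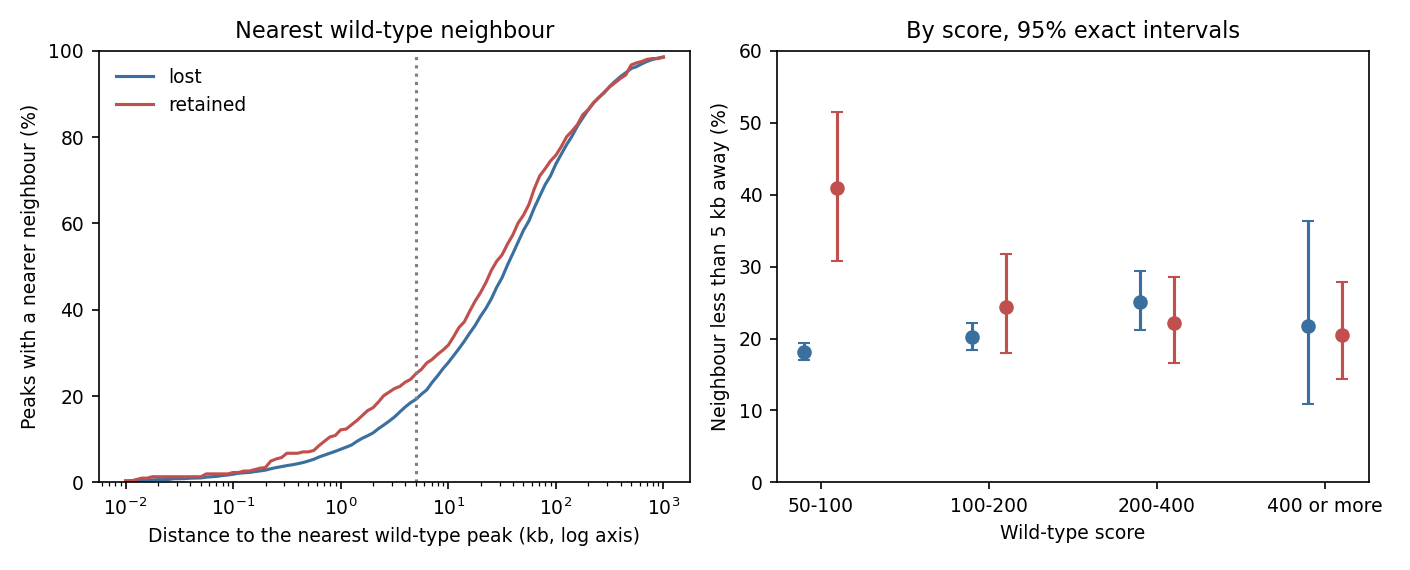
Left, share of lost and retained peaks (%) with a wild-type neighbour nearer than the distance on the log axis (kb; dotted line at 5 kb); right, share with a neighbour less than 5 kb away by wild-type score, lost in blue and retained in red, bars showing exact 95% intervals. The intervals overlap except at scores of 50 to 100, with 18.2% of lost and 40.9% of retained peaks.

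In bands of wild-type score, the intervals of lost and retained peaks were apart in the weakest band and overlapped in the others. At scores of 50 to 100, 18.2% (17.03 to 19.4) of lost and 40.9% (30.8 to 51.5) of the 93 retained peaks had a close neighbour. Of those 93, 25 had a knockout peak beside them without overlap, and 20 of the 25 had a close neighbour. The other 68 had one in 26.5% (16.5 to 38.6). At 100 to 200 the shares were 20.2% (18.4 to 22.2) and 24.4% (18.03 to 31.7), and at 200 to 400 they were 25.1% (21.2 to 29.3) and 22.1% (16.5 to 28.5). Retained peaks without overlap had a close neighbour in 10 of 10 cases at 100 to 200 and in 4 of 5 at 200 to 400. Those with overlap had one in 19.5% (13.5 to 26.6) and 20.6% (15.2 to 27.0).

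Clusters were present on each of the 19 chromosomes. The clustered share of lost peaks had a median of 18.2% over chromosomes. Chromosome 7 had the lowest, 49 of 384 (12.8%, 9.59 to 16.5), and chromosome 19 the highest, 64 of 235 (27.2%, 21.6 to 33.4), followed by chromosome 9 with 78 of 346 (22.5%, 18.25 to 27.3). Chromosome 19 also had the most lost peaks for its length, 4.08 per Mb between the first and last listed peak, but chromosome 11, next with 3.76 per Mb, had a clustered share of 18.2% (14.7 to 22.1). Over the 19 chromosomes, density and clustered share had a Spearman rho of 0.49, and both were taken from the same peaks.

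**Figure D5:**
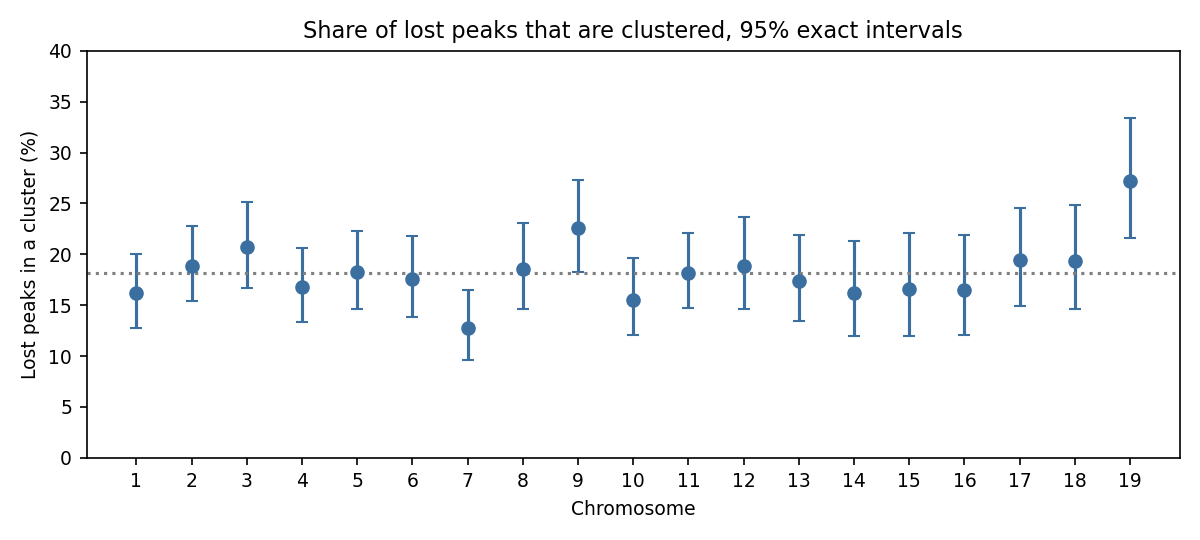
Share of lost peaks that are clustered (%) on each chromosome, with exact 95% intervals; the dotted line is the share over all chromosomes, 18.1%. Chromosome 7 lies below the line and chromosomes 9 and 19 above it, with intervals that do not reach it. Among 19 intervals some can miss the line by counting error alone, and neighbouring peaks are not independent.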

How the data were processed

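SOX2 ChIP-seq peak lists of 1 wild-type and 1 knockout library were used, with the wild-type input left aside. Bowtie2, MACS and mm9 are named per the submitters' processing notes, while versions, settings and control library were not given in the sources used here. Each peak has a position and a score deposited by the authors, and the scale of the score has no stated name. The lowest score was 50 (wild type) and 50.02 (knockout), so weaker signal is not listed, and a lost peak is not shown to lack signal. Lists were made per library. Read depth is unknown, so scores were not compared between genotypes by a test.

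Members were found by the rule in the report, with overlap taken as a distance of 0, and recounted with bedtools 2.31.1, which gave the same 1179 peaks and 554 clusters. The counting was tested on simulated data. Intervals are exact Clopper-Pearson for shares and exact order-statistic for medians. Neighbouring peaks are not independent, and intervals cover counting error only. Software was SciPy 1.17.1, pandas 2.3.3 and NumPy 2.4.6 under Python 3.11.15, with figures by matplotlib 3.10.9.

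The members, limits and alternatives were chosen with earlier results of these data known. Named clusters are those of 5 or more members, the 10 with the highest summed score and those of the 5 highest-scoring members. The 10 clusters of 4, the group of 3 clusters and the shortest gap were chosen after their values were seen. A genome and gene positions of mm9 were not used here: peaks were not assigned to genes, no sequence is given, and the planned motif, promoter and gene-list shares were not computed.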

Additional observations from a re-analysis of the deposited data

How the results depend on the processing

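Each of 7 values was computed again under several settings, which gave 48 combinations of value and setting. Of these, 32 kept a share or median inside its counting interval or changed a count by less than 1.5 times, and 16 did more. The 32 include settings that changed no count. Lifting the width limit, or leaving out regions where both lists have wide peaks, left 1179 peaks in 554 clusters. The 32 is therefore no measure of how stable the results are. With gaps under 2 kb there were 724 clustered lost peaks in 352 clusters, 11.1% of lost peaks were clustered, and 17.3% of retained peaks had a close neighbour. With gaps under 10 kb the shares were 26.4% and 31.8%. Throughout, the clustered share counts lost neighbours only, while the retained share counts any wild-type neighbour, so the 2 are unlike measures. Counting any wild-type neighbour, the share of lost peaks was 11.5% at 2 kb and 27.8% at 10 kb. With a wild-type score of at least 100, 187 peaks in 90 clusters were left, the shares were 8.30% and 11.7%, and the medians were a score of 155.83, a width of 419 bp and a gap of 1760 bp. Joining lost peaks less than 500 bp apart, chosen after seeing the data, gave a clustered share of 13.8%, with 876 joined peaks in 414 clusters. The retained share was 21.0% when only an overlapping knockout peak counted and 34.6% when one within 5 kb did. These settings change which peaks can be neighbours or count as retained by construction. Leaving out chromosome 19 was also chosen after seeing the data and gave 17.8%. Another 24 combinations, listed for motifs, promoters and genes, were not run. No paired analysis was possible because there was 1 library per genotype, and no replicate could be left out. Unknown depth limits every statement on peaks missing from the knockout list.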

Other observations

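Chromosome X, which the rule leaves out, held 57 lost peaks narrower than 1 kb. Of these, 0 had a lost neighbour less than 5 kb away (exact 95% interval 0 to 6.27%). Chromosome 15, with the fewest lost peaks of the chromosomes used, held 223. With fewer peaks to be found on chromosome X, its share cannot be set against theirs. Of the solitary lost peaks, 73 of 5325 (1.37%, 1.08 to 1.72) had a retained peak less than 5 kb away and so belong to close groups of mixed outcome.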
